A study of Mus musculus with 24 samples.

Results

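The genes described are 29 that make, sense, move or export cholesterol, out of 55487 genes in the count table. They were chosen by name and role in the pathway. They comprise 18 synthesis enzymes (7 of the mevalonate and isoprenoid steps, 3 of the squalene steps and 8 from lanosterol to cholesterol), Srebf2 and 3 of its regulators (Scap, Insig1 and Insig2), the sterol transfer protein gene Stard4, the receptor genes Nr1h2 and Nr1h3, the 3 receptor targets Abca1, Abcg1 and Mylip, and Soat1. All 29 passed the filter on low counts and were tested.

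Cholesterol synthesis is set by SREBP2, the product of Srebf2, a transcription factor held in the endoplasmic reticulum with SCAP and INSIG proteins while membrane sterol is plentiful. When sterol falls, SREBP2 moves to the Golgi, is cut, enters the nucleus and switches on nearly every enzyme of the route, together with Insig1, which closes the loop. Oxysterols act on the other side through the liver X receptors (LXRs, encoded by Nr1h2 and Nr1h3), which raise the efflux pumps ABCA1 and ABCG1. MTORC1 favours SREBP-driven transcription, and AMPK is known to restrain lipid synthesis.

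RNA-seq was done on mouse embryonic fibroblasts (MEFs), wild type (WT) or lacking both AMPK catalytic subunit genes Prkaa1 and Prkaa2 (AMPK KO). Each genotype received the vehicle DMSO, MK-8722, an allosteric activator of AMPK, or torin1, a catalytic inhibitor of MTOR, which gives 6 groups of 4 libraries each. The 24 libraries carry a single batch label, and the labels name neither a dose nor a duration. WT libraries came from cells at passages 12, 13, 14 and 15 and AMPK KO libraries from passages 16, 17, 18 and 19, with 1 library of each passage in each group. Each genotype was 1 cell stock obtained from another laboratory and grown with fetal bovine serum, so that genotype, stock and passage range cannot be told apart, and p-values measure the spread between passages of a stock.

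Total estimated counts were 26900240 to 34192685 per library and RNA integrity numbers 9.7 to 10.0. The fibroblast genes Col1a1, Fn1 and Vim were expressed in both genotypes. The 7 fibroblast markers together summed to 11150 to 15910 CPM in WT DMSO and to 4794 to 5370 CPM in AMPK KO DMSO. Col1a2, a fibrillar collagen gene, was at 2503 ± 601 CPM (counts scaled to a common library total; SD, n = 4) in WT DMSO and at 28.4 ± 12.6 CPM in AMPK KO DMSO, and the surface marker Thy1 was at 1.30 ± 0.32 CPM in WT DMSO and 0.196 ± 0.079 CPM in AMPK KO DMSO, near absent in both. Macrophage and leukocyte markers summed to 1.31 to 4.67 CPM over all groups, with 1 or 2 of the 4 at 0 in every library of a group and 3 under 1 CPM. Epithelial markers summed to 1.33 to 6.72 CPM and hepatocyte markers to 0 to 0.0317 CPM. Prkaa1 transcripts were still counted in AMPK KO (70.9 ± 2.95 CPM, against 80.9 ± 2.00 CPM in WT DMSO), so transcript counts do not check the genotype labels. The libraries of the earliest passage in each genotype stood apart for the sterol genes, as given below. Counts for MK-8722 against DMSO, for the interactions and for AMPK KO against WT are therefore also given with some or all of them left out. For torin1 against DMSO or MK-8722, only how far the totals moved is given.

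Promoters were examined for the letters of the sites through which SREBP2 acts, since these genes moved together. A window of 250 bases before to 50 bases after a RefSeq start site was at hand for 24 of the 29 genes (GRCm38.p6). The sterol regulatory element, searched as TCACNCCAC on both strands, was found for Hmgcs1 alone among the 24 genes. It was found for 1.44% of all genes with a window, and in 1.24% of all 32851 windows. The box of the co-factor NF-Y, CCAAT on either strand, was found for 14 of 15 synthesis enzymes with a window, for 3 of 4 genes among Srebf2, Scap, Insig1 and Insig2, and for 2 of 5 genes among Nr1h2, Nr1h3, Abca1, Mylip and Soat1, against 41.1% of the 27025 genes with a window. The E-box CACGTG, the letters that TFEB and TFE3 read, was found in windows of 6 of the 24 genes (Abca1, Dhcr7, Hsd17b7, Insig1, Sc5d and Scap) and in 8.09% of all genes with a window. The exact direct repeat of AGGTCA with a gap of 4 bases, a strict form of the LXR element, was in no window of the 24 genes. It was in 5 of all 32851 windows. Looser forms of this element and of the sterol regulatory element were not searched, so the search cannot tell whether a window lacks them. These are matches of letters in a short window and say nothing about binding, nor about elements outside it.

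The 250 bases before the start site are printed for Hmgcs1, Msmo1 and Insig1, which moved with both drugs, and for Abca1, which moved the other way with torin1. Capitals mark the 4 motifs above, in either orientation. The Hmgcs1 window (GRCm38.p6, chr13:119690101-119690350, plus strand) holds the sterol regulatory element between CCAAT boxes, and the Msmo1 window (chr8:64733579-64733828, minus strand) holds 3 CCAAT boxes. Those of Insig1 (chr5:28071162-28071411, plus strand) and Abca1 (chr4:53159896-53160145, minus strand) each hold 1 E-box, and that of Insig1 also 1 CCAAT box.
Hmgcs1: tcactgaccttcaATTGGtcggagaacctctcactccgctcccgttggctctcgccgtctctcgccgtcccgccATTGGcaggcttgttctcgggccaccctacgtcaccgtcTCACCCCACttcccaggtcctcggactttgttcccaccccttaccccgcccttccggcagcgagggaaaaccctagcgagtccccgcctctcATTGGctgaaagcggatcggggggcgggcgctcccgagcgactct
Msmo1: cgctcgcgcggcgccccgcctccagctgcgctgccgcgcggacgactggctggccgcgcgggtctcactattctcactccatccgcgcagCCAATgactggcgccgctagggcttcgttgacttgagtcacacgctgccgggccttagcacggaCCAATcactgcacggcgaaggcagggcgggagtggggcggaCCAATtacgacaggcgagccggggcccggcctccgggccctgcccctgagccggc
Insig1: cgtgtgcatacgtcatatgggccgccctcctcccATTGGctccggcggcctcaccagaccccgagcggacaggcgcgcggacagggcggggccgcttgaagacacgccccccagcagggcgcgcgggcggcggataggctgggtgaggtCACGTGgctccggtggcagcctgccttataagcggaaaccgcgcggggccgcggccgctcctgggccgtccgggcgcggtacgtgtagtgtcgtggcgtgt
Abca1: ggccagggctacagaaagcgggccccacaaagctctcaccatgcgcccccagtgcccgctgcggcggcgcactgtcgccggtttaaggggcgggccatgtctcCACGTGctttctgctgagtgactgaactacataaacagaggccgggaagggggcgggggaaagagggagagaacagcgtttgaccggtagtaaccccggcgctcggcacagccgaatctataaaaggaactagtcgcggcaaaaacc

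In untreated WT cells the levels per transcript length spanned a wide range. The highest among the 29 genes was Fdps, the farnesyl diphosphate synthase gene, at 221 ± 42.4 TPM (counts scaled by transcript length and library total; SD, n = 4), followed by Srebf2 at 143.5 ± 29.5 TPM. Scap, Acat2, Msmo1 and Soat1 came next, at 79.6 ± 3.28, 78.5 ± 13.0, 69.7 ± 14.8 and 69.4 ± 8.87 TPM, and these 4 did not differ beyond their spread. The lowest 3 were Abca1 at 0.462 ± 0.129 TPM, Nr1h3 at 0.0816 ± 0.0232 TPM and Abcg1 at 0.0293 ± 0.0278 TPM. In these WT cells LXR beta (Nr1h2, 45.6 ± 1.98 TPM) was thus the receptor gene with appreciable transcript, and the 2 efflux pump genes were scarcely transcribed. In AMPK KO cells given DMSO, Abcg1 reached 5.98 TPM and Nr1h3 2.11 TPM.

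**Figure D1:**
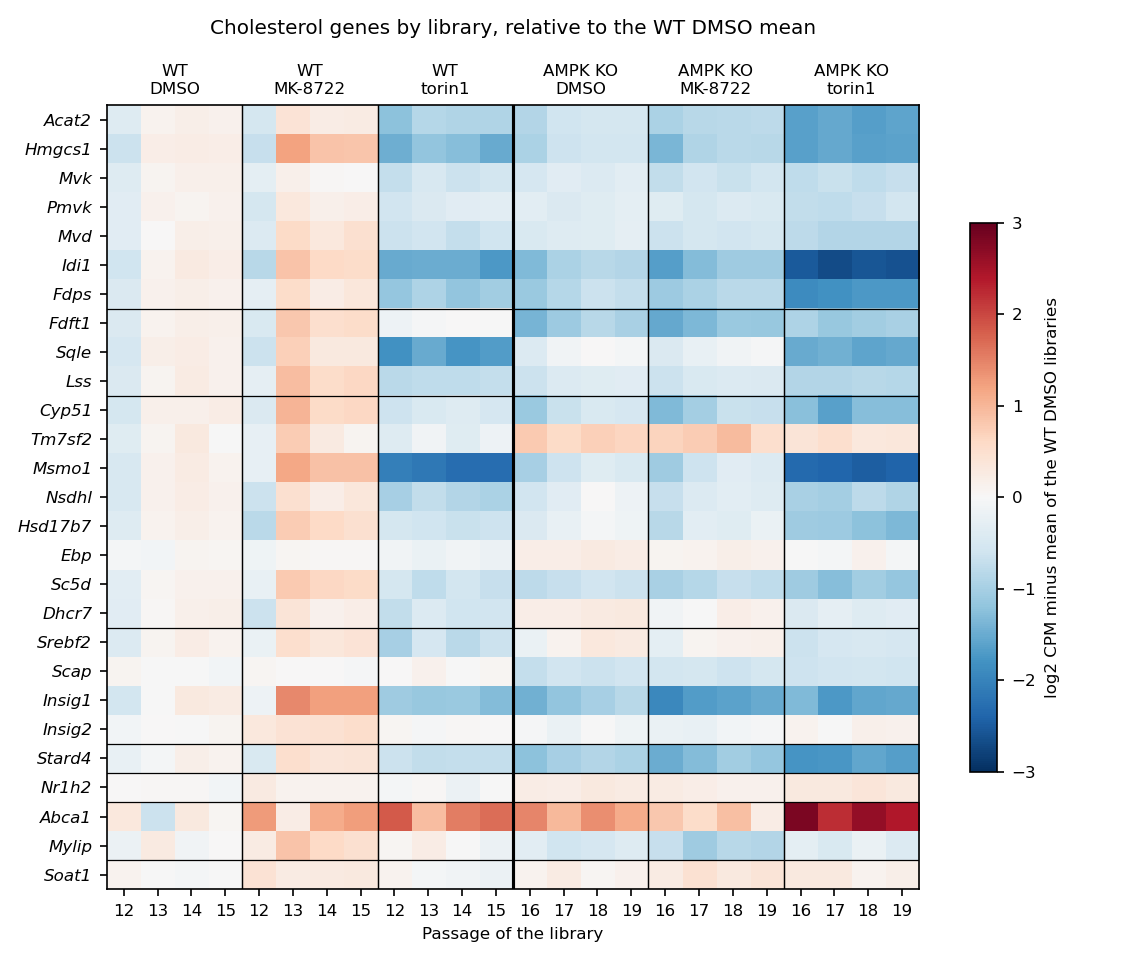
Each cell is the log2 CPM of 1 library minus the mean of the 4 WT DMSO libraries, for 27 genes in rows grouped by role and 24 libraries in columns labelled with their passage (Nr1h3 and Abcg1 are left out because of their few counts in WT). The torin1 columns are blue over most synthesis enzymes in both genotypes while Abca1 is red, and the passage 12 columns of WT DMSO and WT MK-8722 are bluer than the 3 beside them.

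MK-8722 in WT cells raised the sterol feedback gene Insig1, several synthesis enzymes and the LXR targets Abca1 and Mylip. A gene was called where the edgeR adjusted p over all 15828 genes tested was under 0.05 and the fold change at least 1.2. Of the 29 genes, 9 rose and 0 fell, against 10.0% of all genes tested that rose and 5.66% that fell. The 9 were the enzymes Hmgcs1, Lss, Msmo1 and Sc5d, the regulators Insig1 and Insig2, the targets Abca1 and Mylip, and Soat1, which esterifies cholesterol for storage. The remaining LXR target, Abcg1, held few counts in WT and was not called. The 3 endothelial markers summed to 4.36 to 8.49 CPM with MK-8722 in WT and to 0.807 to 1.21 CPM with DMSO, with 2 of the 3 under 1 CPM in both groups, and their part in the result was not tested. In bulk RNA a change in the mix of cells and a change per cell cannot be told apart. The median log2 fold change was 0.26 over the 18 enzymes and 0.28 over the 29 genes, against -0.002 over all genes tested.

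Insig1 had the largest change. From passage 12 to passage 15 it stood at 32.2, 46.8, 57.2 and 56.0 CPM with DMSO and at 42.4, 127, 109 and 111 CPM with MK-8722. The 3 later MK-8722 libraries lay well above every DMSO library, and the passage 12 library lay among them. The log2 fold change was 1.02 ± 0.22 (SE; edgeR adjusted p = 0.000873).

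Msmo1, the methylsterol monooxygenase gene that removes methyl groups from lanosterol, stood at 51.4, 77.9, 84.7 and 77.6 CPM with DMSO and 60.2, 161, 131 and 132 CPM with MK-8722, in the order of passage. Again only the passage 12 library fell within the DMSO range, and the log2 fold change was 0.73 ± 0.20 (edgeR adjusted p = 0.00813). Hmgcs1, which encodes the cytosolic HMG-CoA synthase, stood at 59.6, 108, 110 and 108 CPM with DMSO and at 58.2, 215, 169 and 167 CPM with MK-8722. Its log2 fold change of 0.66 ± 0.24 passed narrowly (edgeR adjusted p = 0.04), and the call was lost when any 1 of 7 of the 8 compared libraries was left out. Sqle, which encodes squalene epoxidase, stood at 71.7, 115, 119 and 113 CPM with DMSO and 65.1, 168, 125 and 126 CPM with MK-8722, and was not called (log2 fold change 0.21 ± 0.18). The largest MK-8722 value of all 18 enzymes was at passage 13.

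The transcript of the master regulator itself was not called. Srebf2 stood at 242, 341, 376 and 344 CPM with DMSO and at 278, 455, 410 and 426 CPM with MK-8722. MK-8722 was the higher within every passage, but the groups overlapped and the log2 fold change was 0.27 ± 0.14 (edgeR adjusted p = 0.181). With passage as a block the change was 0.261 ± 0.063 (edgeR adjusted p = 0.00263), just under the fold threshold. Scap, which escorts SREBP2 out of the endoplasmic reticulum, was level at 148 to 166 CPM with DMSO and 152 to 163 CPM with MK-8722.

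The rise of Insig2, the other INSIG gene, and of Abca1 was seen at every passage. Insig2 stood at 19.7, 21.03, 20.9 and 22.2 CPM with DMSO and at 26.2, 28.4, 29 and 30.3 CPM with MK-8722. The groups did not overlap (log2 fold change 0.44 ± 0.058, edgeR adjusted p = 3.45e-06). Abca1 stood at 3.83, 1.94, 3.79 and 3.21 CPM with DMSO and at 7.53, 3.62, 6.79 and 7.50 CPM with MK-8722. Its passage 13 library was the lowest in both groups, so the groups overlapped although MK-8722 was the higher within every passage, and the log2 fold change was 0.99 ± 0.24 (edgeR adjusted p = 0.00328).

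Within passages, MK-8722 and DMSO libraries could be set side by side, 1 against 1. At passage 13, all 18 synthesis enzymes were higher with MK-8722 (median log2 difference 0.62), at passage 14 this held for 13 of 18 (0.11) and at passage 15 for 16 of 18 (0.26). At passage 12 it held for 7 of 18, with a median of -0.045. The passage 12 cells were not without a response to MK-8722. Flcn and Hexa, which encode folliculin and a lysosomal hexosaminidase, were 1.13 and 1.39 higher on the log2 CPM scale at passage 12, and 1.05 to 1.32 and 1.29 to 1.48 higher at the other passages. Abca1 was 0.96 higher at passage 12 and 0.83 to 1.21 higher at the others, and Insig2 0.41 and 0.43 to 0.47.

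**Figure D2:**
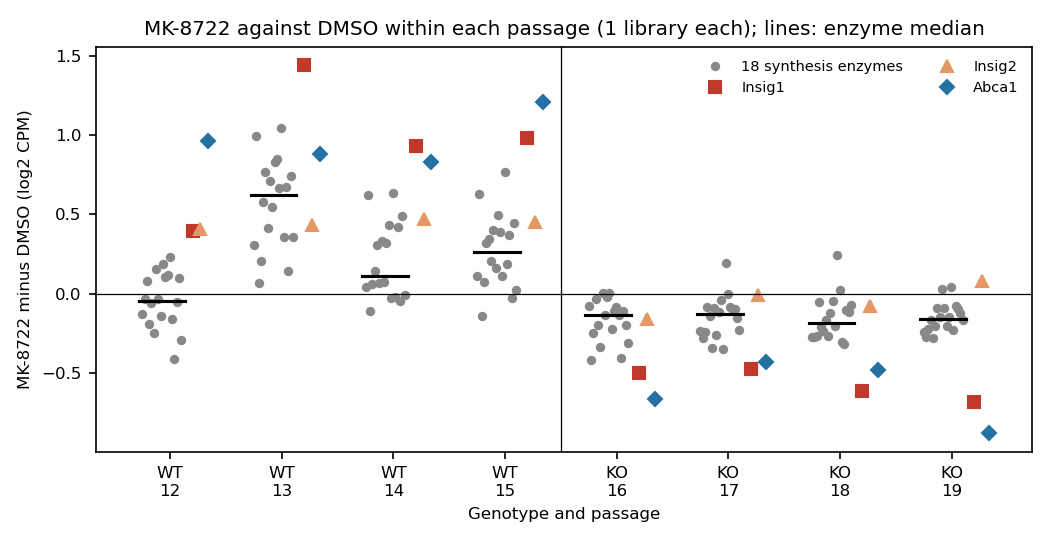
The vertical axis is the MK-8722 library minus the DMSO library of the same passage, in log2 CPM, for the 18 synthesis enzymes (grey, with their median as a line), Insig1, Insig2 and Abca1. At passage 12 the enzyme median was -0.045 while Abca1 was at 0.96 and Insig2 at 0.41, and in AMPK KO the median was below 0 at all 4 passages.

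The count in WT moved with 1 library. Without WT MK-8722 replicate 2, the passage 12 library, 18 of 29 genes rose, against 10.2% of all genes. With all 3 WT libraries of passage 12 left out 15 rose, against 9.88% of all genes, and with the earliest passage of both genotypes left out 17 rose, against 11.1%. Without the passage 12 libraries the enzymes called were Hmgcs1, Mvd, Idi1, Fdft1, Lss, Cyp51, Msmo1, Hsd17b7 and Sc5d, together with Insig1 (log2 fold change 1.10 ± 0.12), Insig2, Stard4, Abca1, Mylip and Soat1. This alternative was chosen after the values were seen. In the fit of the 8 compared libraries alone, 5 rose, against 10.1% of all genes. With passage as a block 11 rose, the 9 with Fdft1 (0.38 ± 0.12, edgeR adjusted p = 0.0145) and Cyp51 (0.47 ± 0.13, edgeR adjusted p = 0.00883), against 11.2% of all genes.

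In AMPK KO cells none of these genes was called with MK-8722. Of the 29, 0 rose and 0 fell by edgeR, against 0.866% and 0.695% of all genes. At an unadjusted p under 0.05 there were 5, and DESeq2 called 1. Soat1, called in WT, was higher within every AMPK KO passage too, by 0.136 to 0.267 on the log2 scale. Its log2 fold change of 0.21 lay below the fold threshold, and its difference from the WT response was not called (-0.10). The point estimates lay below 0 for 25 of the 29 (median -0.16, against 0.002 over all genes), and 16 or 17 of the 18 enzymes were below DMSO within each passage, with medians from -0.19 to -0.13. Insig1 stood at 17.2, 20.6, 23.4 and 26.2 CPM with DMSO and at 12.2, 14.8, 15.3 and 16.3 CPM with MK-8722, passages 16 to 19. The groups did not overlap, but the log2 fold change of -0.58 ± 0.24 was not called (edgeR adjusted p = 0.207).

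Abca1 in AMPK KO stood at 8.60, 6.15, 8.22 and 6.71 CPM with DMSO and at 5.42, 4.55, 5.86 and 3.62 CPM with MK-8722. These groups did not overlap either (log2 fold change -0.61 ± 0.22, edgeR adjusted p = 0.151). With passage as a block, 2 of the 29 genes fell, Abca1 (-0.61 ± 0.085, edgeR adjusted p = 0.000104) and Mylip (-0.41 ± 0.083, edgeR adjusted p = 0.00254). In that fit 2.62% of all genes rose and 1.99% fell. With the earliest passages left out, 1 gene fell, Insig1, against 0.961% of all genes.

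The other genes with values given for WT were closer to DMSO. Hmgcs1 in AMPK KO stood at 48.5, 60.5, 64.0 and 63.5 CPM with DMSO and at 36.3, 49.8, 52.9 and 52.6 CPM with MK-8722, and its groups overlapped. Sqle stood at 76.6, 95.0, 104 and 98.2 CPM with DMSO and at 75.6, 87.8, 95.3 and 100 CPM with MK-8722, and Srebf2 at 278, 346, 397 and 385 CPM and at 264, 339, 352 and 358 CPM. The groups overlapped for both genes.

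The difference between the genotypes was tested as an interaction, the MK-8722 response in AMPK KO minus that in WT. Of the 29 genes, 5 were lower and 0 higher, against 7.66% and 5.12% of all genes. They were Abca1 (-1.60 ± 0.33, edgeR adjusted p = 0.00157), Insig1 (-1.60 ± 0.32, edgeR adjusted p = 0.00121), Mylip (-0.97 ± 0.17, edgeR adjusted p = 0.000341), Sc5d, which encodes a sterol desaturase (-0.63 ± 0.19, edgeR adjusted p = 0.0281), and Insig2 (-0.49 ± 0.083, edgeR adjusted p = 0.00023). Of the 18 enzymes 1 was called, a share near the background. With passage as a block 15 were lower, against 10% of all genes, and with the earliest passages left out 18 were lower, against 8.68%. Without WT MK-8722 replicate 2 the number was 16, against 8.49%. Hmgcs1 was at -0.96 ± 0.34 with all libraries (edgeR adjusted p = 0.0544), at -0.90 ± 0.22 with passage as a block (edgeR adjusted p = 0.00402) and at -1.05 ± 0.16 without passage 12 (edgeR adjusted p = 6.85e-05). Srebf2 was called with passage as a block (-0.36 ± 0.089, edgeR adjusted p = 0.00491).

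**Figure D3:**
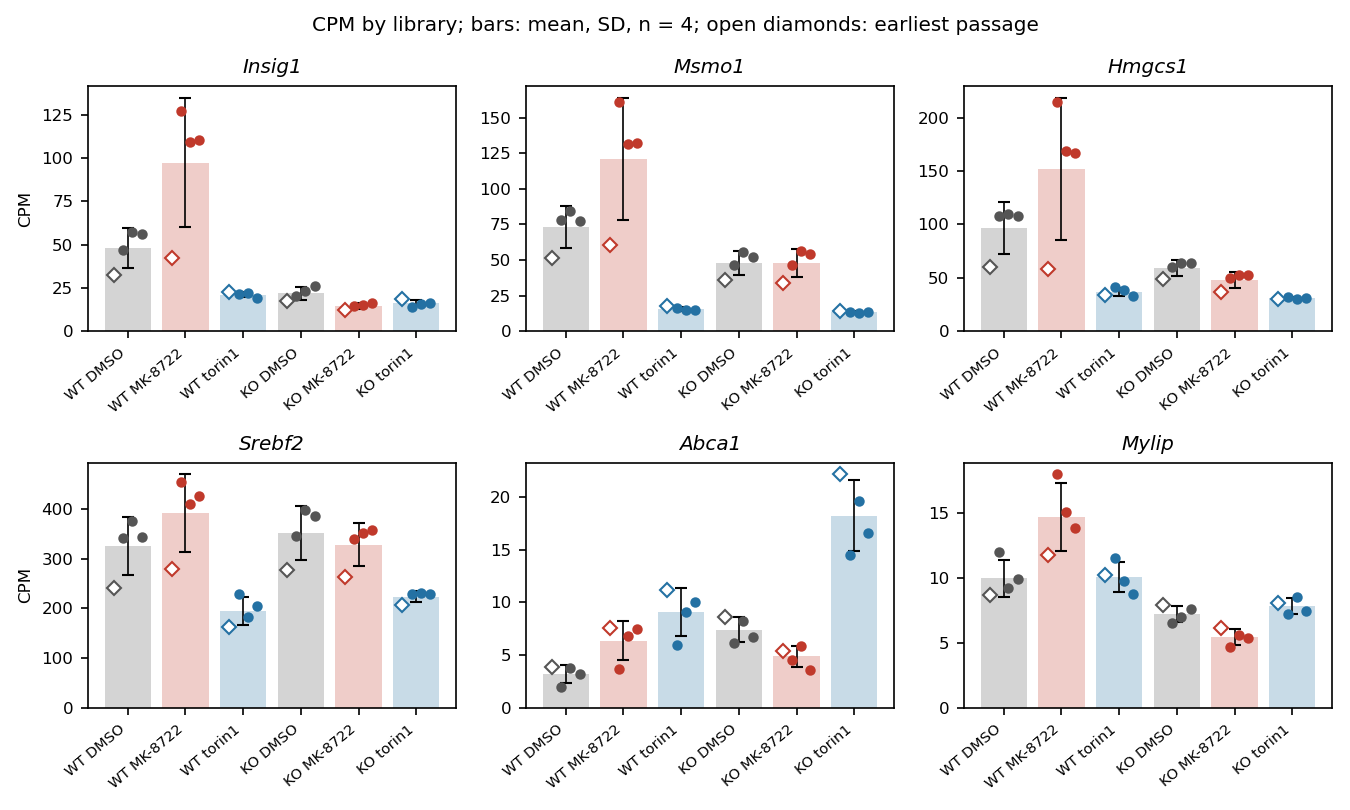
CPM of 6 genes in each library, with the group mean as a bar, the SD as an error bar (n = 4) and the earliest passage of each genotype as an open diamond. Insig1, Msmo1 and Hmgcs1 reach 109 to 215 CPM in the 3 later WT MK-8722 libraries, and Abca1 is the 1 gene shown that was called higher with torin1 in both genotypes.

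Torin1 lowered synthesis genes and raised the efflux gene Abca1 in both genotypes. In WT, 18 of the 29 genes fell and 3 rose, against 21.1% and 26.6% of all genes. In AMPK KO, 17 fell and 3 rose, against 17.6% and 25.9%. The 3 that rose were Nr1h3, Abca1 and Abcg1 in both genotypes. In WT, Nr1h3 and Abcg1 held few counts, and they passed the filter on low counts only through the AMPK KO libraries. Their WT calls therefore add nothing to the counts themselves. Of the 18 enzymes, 15 fell in each genotype, with medians of -0.65 in WT and -0.64 in AMPK KO on the log2 scale, where the medians of all genes were 0.036 and 0.055. For 14 of the enzymes in WT and 17 in AMPK KO every torin1 library lay below every DMSO library, which held for 24.7% and 23.7% of all genes.

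Msmo1 fell the most. With torin1 it stood at 17.3, 16.2, 14.7 and 14.8 CPM in WT (passages 12 to 15) and at 14.1, 13.7, 12.8 and 13.6 CPM in AMPK KO (passages 16 to 19), where DMSO values were 36.1, 46.4, 55.4 and 52.3 CPM. Every torin1 library lay below every DMSO library of its genotype, and the log2 fold changes were -2.21 ± 0.22 in WT (edgeR adjusted p = 8.1e-09) and -1.81 ± 0.22 in AMPK KO (edgeR adjusted p = 2.78e-07).

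Sqle with torin1 stood at 29.1, 35.9, 29.9 and 32.0 CPM in WT and at 36.0, 37.6, 34.05 and 35.4 CPM in AMPK KO, where DMSO values were 76.6, 95.0, 104 and 98.2 CPM. Both groups were separate from DMSO, with log2 fold changes of -1.72 ± 0.19 and -1.38 ± 0.19 (edgeR adjusted p = 3.99e-08 and 1.16e-06). Idi1, the isomerase that makes dimethylallyl diphosphate, stood at 27.5, 27.9, 27.9 and 23.6 CPM with torin1 against 52.1, 84.2, 95.2 and 90.7 CPM with DMSO in WT. In AMPK KO it stood at 13.6, 12.2, 13.3 and 12.7 CPM against 31.3, 40.5, 44.3 and 42.9 CPM. Its log2 fold changes were -1.59 ± 0.24 and -1.62 ± 0.25, and the difference between them was -0.026 ± 0.34.

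Hmgcs1 with torin1 stood at 33.8, 41.2, 38.2 and 32.9 CPM in WT and at 30.0, 32.0, 30.0 and 30.9 CPM in AMPK KO, where DMSO values were 48.5, 60.5, 64.0 and 63.5 CPM. The log2 fold changes were -1.40 ± 0.25 and -0.95 ± 0.25 (edgeR adjusted p = 3.41e-05 and 0.00243). Srebf2 with torin1 stood at 162, 228, 182 and 206 CPM in WT and at 207, 228, 230 and 228 CPM in AMPK KO, where DMSO values were 278, 346, 397 and 385 CPM. It fell in both genotypes, by 0.74 ± 0.15 and 0.66 ± 0.15 on the log2 scale, and these groups did not overlap with DMSO. Scap was not called in either (0.05 ± 0.041 and 0.04 ± 0.041).

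Insig1 fell with torin1 in WT, where it stood at 22.4, 21.4, 21.8 and 18.9 CPM, below every DMSO library (log2 fold change -1.18 ± 0.23, edgeR adjusted p = 8.27e-05). In AMPK KO it stood at 18.7, 14.2, 15.8 and 16.2 CPM, which overlapped with DMSO (-0.43 ± 0.24, edgeR adjusted p = 0.124). The difference between these 2 changes was 0.75 ± 0.33 and was not called (edgeR adjusted p = 0.152).

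Among the 18 enzymes, 3 were not called with torin1 in either genotype. Ebp, a sterol isomerase gene, was lower by less than the fold threshold (-0.15 ± 0.054 and -0.23 ± 0.053), and Tm7sf2, a sterol reductase gene at 3.61 to 4.38 CPM with torin1 in WT, was at -0.27 ± 0.16 and -0.29 ± 0.15. With passage as a block Tm7sf2 fell in AMPK KO (-0.29 ± 0.11, edgeR adjusted p = 0.0261). Fdft1, which encodes squalene synthase, stood at 64.0, 69.2, 71.8 and 70.8 CPM with torin1 in WT, against 52.8, 76.2, 80.3 and 78.6 CPM with DMSO (-0.06 ± 0.17), and its AMPK KO change was 0.05 ± 0.18.

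Fdft1 shares exons with a lysosomal gene. On chromosome 14 (GRCm38, 63145150 to 63179578, minus strand), 774 of its exonic bases, 18.3% of them, also lie in exons of Ctsb, the cathepsin B gene, on the opposite strand, and the sources used here do not give the strand setting of the counting. Ctsb changed with torin1 by -0.009 ± 0.048 in WT and 0.02 ± 0.048 in AMPK KO. With MK-8722 in WT it rose by 0.42 ± 0.048, where Fdft1 was at 0.41 ± 0.17, and in AMPK KO against WT it was at -0.76 ± 0.048, where Fdft1 was at -1.08 ± 0.18. The part of these shared bases in the Fdft1 counts was not tested. Fdps shares 26.7% of its exonic bases with Gm43738 and Tm7sf2 12.1% with Vps51, both on the same strand. Hmgcs1 shares 12.1% with Gm48342, Scap 13.2% with 5830462I19Rik and Idi1 9.22% with Gm48574, all on the opposite strand. The counts of Hmgcs1, Scap and Idi1 are uncertain in the same way as those of Fdft1. In AMPK KO against WT, Vps51 was higher by 0.84 ± 0.063, where Tm7sf2 was higher by 0.67. With torin1 Vps51 rose by 0.38 ± 0.063 in WT and 0.32 ± 0.061 in AMPK KO, where Tm7sf2 was not called. For Fdps and Tm7sf2 no strand setting separates the overlapping genes, and the part of the shared bases in their counts was not tested.

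No gene was called for a torin1 response that differed between the genotypes. By edgeR 0 of the 29 genes were higher and 0 lower, against 4.15% and 2.92% of all genes. At an unadjusted p under 0.05 there was 1, and DESeq2 called 0. With passage as a block 1 gene was called, Mvk, the mevalonate kinase gene, at 0.27 ± 0.073 (edgeR adjusted p = 0.0125). With the WT libraries of passage 12 left out 5 were higher and 0 lower, against 4.82% and 3.58% of all genes. With the earliest passages of both genotypes left out 4 were higher and 1 lower, against 2.64% and 5.80%.

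Torin1 against MK-8722 in WT set the 2 drugs apart directly. Of the 29 genes, 23 were lower with torin1 and 1 higher, against 21.2% and 24.5% of all genes. Among the enzymes 17 of 18 were lower, with a median of -1.03, and Ebp was the one below the fold threshold. The largest differences were those of Msmo1 (-2.94 ± 0.23, edgeR adjusted p = 1.04e-10), Insig1 (-2.20 ± 0.23, edgeR adjusted p = 1.43e-08) and Hmgcs1 (-2.06 ± 0.25, edgeR adjusted p = 1.89e-07). Abca1, raised by both drugs, was at 0.51 ± 0.22 between them (edgeR adjusted p = 0.0524). It was higher with torin1 at all 4 passages, and with passage as a block it was called (0.52 ± 0.083, edgeR adjusted p = 1.64e-05). The comparisons with DMSO and with MK-8722 share libraries and are not independent.

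**Figure D4:**
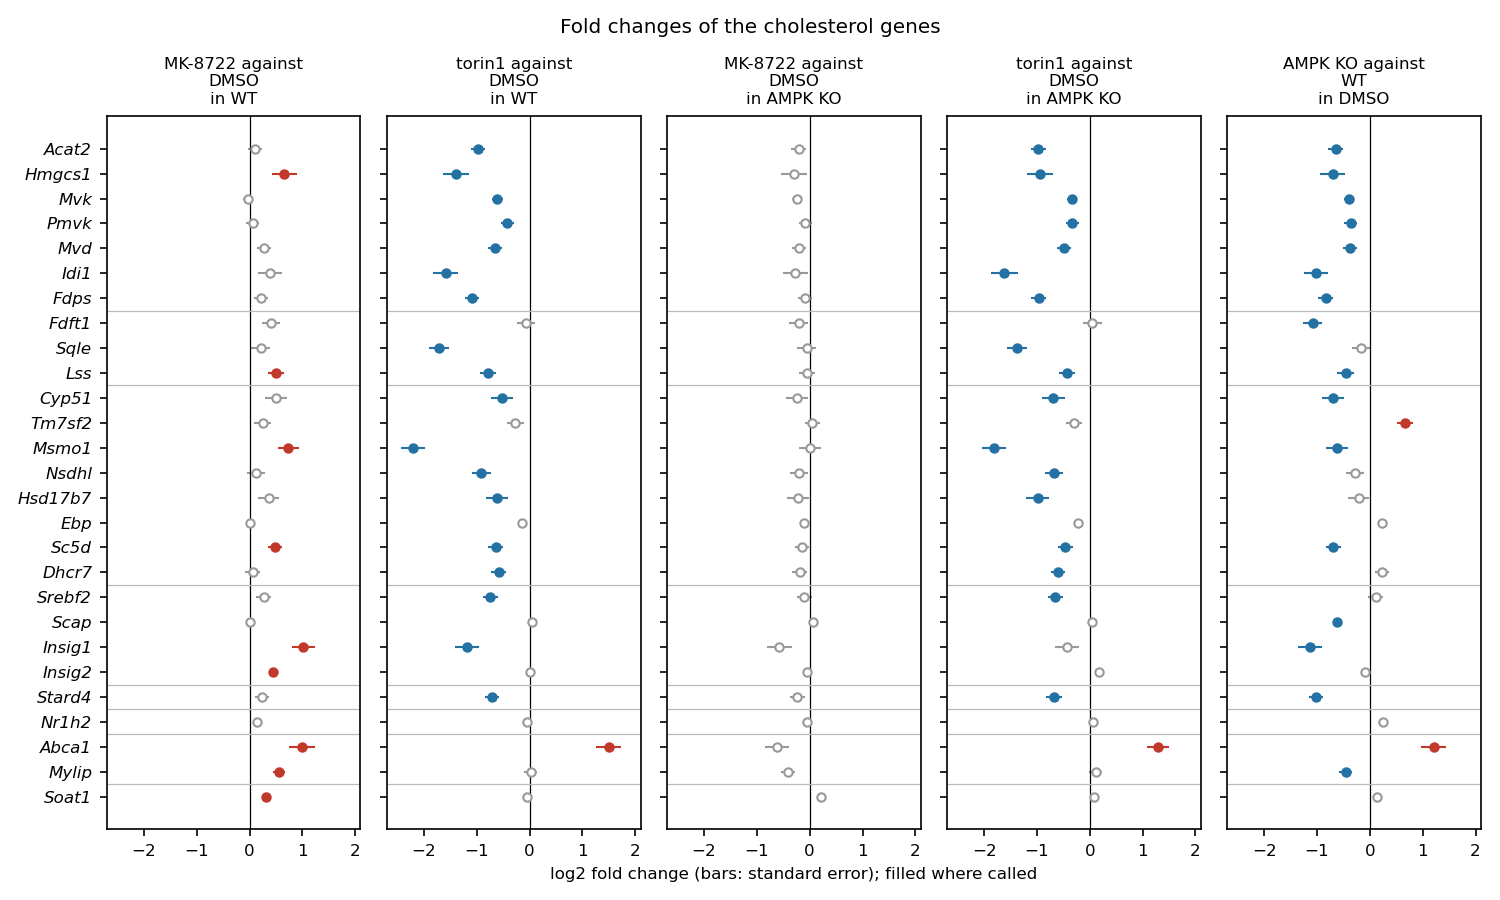
Log2 fold change of 27 genes with its standard error in 5 comparisons (Nr1h3 and Abcg1 left out), red where called higher, blue where called lower and open where not called. In both torin1 panels 15 of 18 enzymes are blue, in the panel of MK-8722 in AMPK KO all symbols are open, and Fdft1, Tm7sf2 and Ebp are open in both torin1 panels.

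AMPK KO cells had lower synthesis transcripts than WT cells without any drug. Of the 29 genes, 16 were lower and 4 higher in AMPK KO DMSO, against 26.0% and 30.9% of all genes. All 7 genes of the mevalonate and isoprenoid steps were lower (median -0.65), 2 of the 3 of the squalene steps, and 3 of the 8 from lanosterol on, where Tm7sf2 was higher (0.67 ± 0.15). The median over all genes was 0.015 on the log2 scale. With scaling by library size alone it was 0.155, and 13 of the 29 genes were lower and 8 higher. The share of all genes called under that scaling is not given, so this count cannot be set against it. With the WT libraries of passage 12 left out, 19 were lower and 4 higher, against 27.8% and 29.3% of all genes.

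Among the enzymes the largest difference was that of Fdft1, followed by Idi1 (-1.02 ± 0.23, edgeR adjusted p = 0.000387). The Idi1 libraries given above did not overlap between the genotypes. Insig1 was lower by 1.14 ± 0.23 (edgeR adjusted p = 9.5e-05) and Stard4, the cytosolic sterol carrier gene, was lower by 1.02 ± 0.14 (edgeR adjusted p = 5.81e-07). Scap was lower too (-0.63 ± 0.041, edgeR adjusted p = 2e-12), at 95.7 to 105 CPM against 148 to 166 CPM. Srebf2 (0.11 ± 0.14) and Sqle (-0.16 ± 0.18) were not called, and their groups overlapped.

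The efflux pump genes and Nr1h3 went the other way, but the LXR targets were not uniform. Of these 3 genes, 2 were called higher and 1, Mylip, was called lower (log2 fold change -0.46). Abcg1, which exports cholesterol to high-density lipoprotein, stood at 0.0628, 0, 0.140 and 0.0721 CPM in WT DMSO, and at 14.2, 11.7, 14.2 and 11.3 CPM in AMPK KO DMSO. The log2 fold change of 7.46 ± 0.24 (edgeR adjusted p = 2.35e-18) depends on the prior count, since WT libraries held few reads. Nr1h3, the LXR alpha gene, stood at 0.126, 0.0731, 0.0702 and 0.0721 CPM in WT DMSO and at 2.53, 1.59, 2.13 and 1.67 CPM in AMPK KO DMSO (4.46 ± 0.28, edgeR adjusted p = 9.28e-13). That value depends on the prior count too. Abcg1 and Nr1h3 passed the filter on low counts only through the AMPK KO libraries, so these tests add nothing to the CPM values. Abca1 was higher by 1.21 ± 0.24 on the log2 scale (edgeR adjusted p = 8.1e-05), and its groups did not overlap. Col1a2, given above, was lower in the AMPK KO stock by a wide margin, and the part of the stock in any of these differences cannot be told apart from that of AMPK.

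With torin1, Abca1 stood at 11.2, 5.90, 9.13 and 10.0 CPM in WT and at 22.2, 14.5, 19.6 and 16.6 CPM in AMPK KO. Every torin1 library lay above every DMSO library of its genotype, with log2 fold changes of 1.496 ± 0.24 (edgeR adjusted p = 6.87e-06) and 1.30 ± 0.21 (edgeR adjusted p = 1.27e-05). Abcg1 in AMPK KO rose from the values above to 23.01, 21.2, 24.4 and 21.3 CPM (0.81 ± 0.11, edgeR adjusted p = 1.69e-06). In WT it stood at 0.256, 0.222, 0.148 and 0.254 CPM, which are 5 to 8 counts per library. The log2 fold change there was 1.60 ± 0.49, and at passage 14 the difference from DMSO was 0.05. The WT call adds nothing to these values. Against the MK-8722 libraries of WT, which held 0 to 3 counts, torin1 was at least 1.87-fold higher, with a floor of 3 counts per library. Mylip, a ubiquitin ligase gene and LXR target that limits lipoprotein uptake, was not called with torin1 in either genotype (0.02 ± 0.12 and 0.11 ± 0.12).

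Mylip moved with MK-8722 instead. In WT it stood at 8.73, 12.0, 9.27 and 9.94 CPM with DMSO and at 11.8, 18.0, 15.1 and 13.9 CPM with MK-8722 (0.56 ± 0.12, edgeR adjusted p = 0.000755). In AMPK KO it stood at 7.90, 6.54, 6.96 and 7.59 CPM with DMSO and at 6.14, 4.71, 5.57 and 5.39 CPM with MK-8722. MK-8722 was higher at every WT passage and lower at every AMPK KO passage.

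Passage was then examined as a line over the 3 steps of passage within each genotype. In WT 2 of the 29 genes rose with passage and 0 fell, against 1.01% and 1.67% of all genes. They were the first enzyme of the route, Acat2 (0.45 ± 0.13 over the 3 steps, edgeR adjusted p = 0.0473), and Pmvk, the phosphomevalonate kinase gene (0.41 ± 0.11, edgeR adjusted p = 0.0402). In order of passage Acat2 stood at 76.5, 107, 113 and 109 CPM with DMSO, at 69.8, 132, 116 and 118 CPM with MK-8722 and at 42.7, 55.7, 54.0 and 53.6 CPM with torin1. Pmvk stood at 22.5, 30.9, 30.3 and 31.2 CPM, at 19.7, 35.6, 31.6 and 32.8 CPM and at 19.1, 21.2, 22.4 and 22.9 CPM. In each of these groups the passage 12 library was the lowest. All 18 enzymes had positive slopes, with a median of 0.41, where the median of all genes was -0.005. In AMPK KO 0 rose and 0 fell by edgeR, against 0.0316% and 0.0758% of all genes, with 3 at an unadjusted p under 0.05 and 0 by DESeq2. There 17 of 18 slopes were positive, with a median of 0.19.

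A line was a poor description of these values, because the step lay between the earliest passage and the rest. The mean log2 CPM of the 18 enzymes in WT DMSO was 5.14 at passage 12 and 5.65, 5.75 and 5.70 at passages 13, 14 and 15. In WT MK-8722 it was 5.10 at passage 12 and 6.22, 5.95 and 5.97 thereafter. With torin1 it was 4.67, 4.80, 4.73 and 4.73. Thus 17 of 18 enzymes had their lowest WT DMSO library at passage 12 and all 18 their lowest WT MK-8722 library, and with torin1 this held for 10.

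AMPK KO showed a smaller step of the same kind. The mean was 4.97 at passage 16 with DMSO and 5.15, 5.28 and 5.25 after it, and 4.80 at passage 16 with MK-8722 and 5.003, 5.12 and 5.10 after it. In each of these 2 groups 16 of 18 enzymes were lowest at passage 16. With torin1 the 4 libraries lay between 4.42 and 4.44 (SD 0.0115), and 4 of 18 were lowest at passage 16. The SD of the mean over libraries was 0.28 in WT DMSO, 0.49 in WT MK-8722 and 0.0544 in WT torin1.

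**Figure D5:**
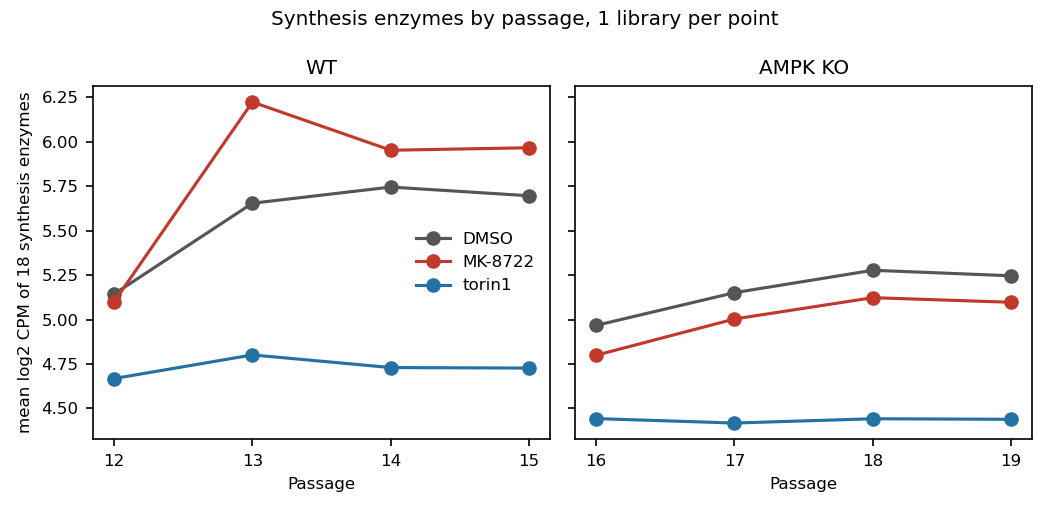
Mean log2 CPM of the 18 synthesis enzymes in each library against the passage of its cells, in WT (left) and AMPK KO (right), 1 line per treatment. The DMSO and MK-8722 lines start low at the earliest passage (5.14 and 5.10 in WT), and the torin1 lines are flat.

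The later passages were compared with the earliest in a fit chosen after these values were seen, with separate terms for torin1. It took the libraries of a passage as independent, although these deviated together, and each genotype had only its own earliest passage. The p-values and calls of this fit therefore do not measure the spread between passages. In the DMSO and MK-8722 libraries of WT, 20 of the 29 genes were higher at the later passages and 0 lower, against 3.59% and 3.35% of all genes. They included 17 of 18 enzymes (median 0.72), all but Ebp, with Srebf2 (0.59 ± 0.066), Insig1 (1.08 ± 0.12) and Stard4 (0.58 ± 0.091). The largest was Hmgcs1, at 1.24 ± 0.13 (edgeR adjusted p = 1.89e-06). None of the LXR genes, Insig2, Scap or Soat1 was called. In AMPK KO 9 were higher and 0 lower, against 1.91% and 2.75%, namely Srebf2 and 8 enzymes led by Msmo1 (0.56 ± 0.11, edgeR adjusted p = 0.00317).

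In the torin1 libraries 2 genes were higher at the later WT passages, Acat2 (0.35 ± 0.086) and Srebf2 (0.35 ± 0.093), and 0 lower, against 0.897% and 1.31% of all genes. In AMPK KO torin1 0 were higher and 0 lower, against 0.00632% in each direction. The difference itself, the step with DMSO and MK-8722 less that with torin1, was called higher for 8 of 29 genes in WT (7 enzymes and Insig1) and lower for 0, against 0.208% and 0.190% of all genes. In AMPK KO it was called for 0 genes in either direction, against 0.00632% and 0%, although 16 of 18 enzymes had positive differences. The 3 passage 12 libraries held 28941216 to 34192685 counts and had integrity numbers of 9.7 to 9.9, which include the highest total and the lowest integrity number of the 24 libraries. The part of these in the result was not tested.

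Outside the 29 genes, 35 more genes of the pathway were listed, of which 33 were tested. In WT 5 of them rose and 1 fell with MK-8722, against 10.0% and 5.66% of all genes, and 7 rose and 11 fell with torin1, against 26.6% and 21.1%. In AMPK KO 0 rose and 1 fell with MK-8722, against 0.866% and 0.695%, and 7 rose and 11 fell with torin1, against 25.9% and 17.6%. Of 5 LXR partners and further targets, 0 rose and 1 fell with MK-8722 in WT. With torin1 2 of them rose and 1 fell in each genotype. Of 6 genes of the isoprenoid branch, 4 fell with torin1 in both genotypes. They were Ggps1, which makes geranylgeranyl diphosphate, Pdss1 and Pdss2 of the ubiquinone side chain, and Nus1 of the dolichol route, with log2 fold changes from -0.82 to -0.27 in WT and from -0.60 to -0.26 in AMPK KO.

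Of 10 genes of uptake and transfer, 4 fell and 3 rose with torin1 in WT, and 5 fell and 3 rose in AMPK KO. Lrp8, a lipoprotein receptor gene, fell by 2.14 ± 0.12 in WT and 1.52 ± 0.12 in AMPK KO, and the interaction was called (0.61 ± 0.17, edgeR adjusted p = 0.0198). Tmem97, a sterol-responsive membrane protein gene, fell by 1.22 ± 0.079 and 1.30 ± 0.080. Of 8 genes of SREBP processing and degradation, 1 fell with torin1 in each genotype, Rnf145, a sterol-responsive ubiquitin ligase gene (by 1.04 ± 0.076 and 1.04 ± 0.077 on the log2 scale). Npc2, the lysosomal cholesterol carrier gene, rose in WT by 0.53 ± 0.051 with MK-8722 and 0.64 ± 0.051 with torin1, and Nceh1, a cholesteryl ester hydrolase gene, by 0.54 ± 0.088 and 0.42 ± 0.088 in the same cells. The MK-8722 interaction with genotype was lower for both (-0.52 ± 0.073 and -0.53 ± 0.12).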

How the data were processed

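Polyadenylated RNA was sequenced as paired 52-base reads from 24 MEF libraries. Per the labels and the study's methods, the authors aligned reads to GRCm38 with STAR in a pipeline that took molecular identifiers into account, and quantified them with Salmon. The deposited gene and transcript tables hold estimated counts, not normalized, and TPM values, which the authors' software scaled to transcript length and library total. Groups came from the labels.

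For testing, the estimated counts were rounded to the nearest whole number. A filter on low counts kept 15828 genes with 99.96% of counts, which were scaled by TMM and tested with edgeR's quasi-likelihood test (4.0.16, R 4.3.3), as 6 group means fitted over all 24 libraries, with Benjamini-Hochberg adjustment over all genes. To be called, a gene needed a fold change of 1.2 or more with an adjusted p below 0.05, the thresholds of the study. The interaction was the response in AMPK KO minus that in WT. CPM used TMM-scaled totals. Library totals limit precision, and the common biological coefficient of variation was 0.079. Alternatives covered scaling, filters, model terms, DESeq2 (1.42.0), thresholds and left-out libraries. The fits were tested on simulated data.

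The 29 genes, the other lists and the motifs were chosen with earlier results of these data known. Values in every library were given for Srebf2, Insig1, Hmgcs1, Sqle and Abca1, and for the 3 called genes with the largest changes in each comparison. Other genes described in that way were chosen after their values were seen. Replicate numbers did not pair the samples: deviations of libraries with the same number in different groups correlated at -0.196 to 0.25. Libraries of the same passage and genotype correlated at a median of 0.129. Positions came from the GRCm38 annotation and promoters from RefSeq (GRCm38.p6).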

Additional observations from a re-analysis of the deposited data

Results flagged for a closer look

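In 21 of 174 groups of 4 libraries, the lowest or the highest library stood apart from the other 3 by Dixon's criterion, which chance meets in about 1 of 20 groups. In 10 of these the library was WT DMSO replicate 4, of passage 12, and it was the lowest for a synthesis enzyme, with 76.48 CPM for Acat2, 59.62 for Hmgcs1, 29.76 for Mvk, 22.51 for Pmvk, 117.2 for Fdps, 52.84 for Fdft1, 71.74 for Sqle, 72.43 for Cyp51, 17.89 for Nsdhl and 13.31 for Hsd17b7. The same library was the highest for Nr1h3, at 0.1256 CPM, a value of few counts. Other passage 12 libraries stood apart for Acat2 with torin1 (42.69 CPM, lowest), Ebp with MK-8722 (26.06 CPM, lowest), Stard4 with torin1 (44.51 CPM, highest) and Nr1h2 with MK-8722 (48.58 CPM, highest).

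Of the others, Idi1 was lowest in WT torin1 replicate 1 (23.64 CPM). In AMPK KO with torin1, Mvd was highest in replicate 1 (24.58 CPM), Srebf2 lowest in replicate 1 (207.4 CPM), Cyp51 lowest in replicate 2 (34.22 CPM) and Nr1h2 highest in replicate 3 (51.6 CPM). Scap was lowest in AMPK KO MK-8722 replicate 4 (101 CPM).

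The response to MK-8722 differed between the genotypes, by the interaction test, for Sc5d (-0.626 on the log2 scale), Insig1 (-1.597), Insig2 (-0.486), Abca1 (-1.603) and Mylip (-0.969). The part of AMPK, of the cell stock and of the passage range in these differences cannot be told apart.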

How the results depend on the processing

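The total number called for torin1 against DMSO in both genotypes, AMPK KO against WT and torin1 against MK-8722 stayed within 1.5 times under every alternative run. Their splits moved more: AMPK KO against WT gave 8 higher and 13 lower with library size alone (4 and 16), torin1 against DMSO gave 1 higher in each genotype with at least 10 counts in every library and 1 in WT with only the libraries compared (3), and torin1 against MK-8722 gave 0 to 3 higher over the alternatives (1). For MK-8722 in WT, where 9 genes were called, 5 were called with only the libraries compared, 4 at a fold of at least 1.5, 17 without the earliest passages, 15 without passage 12, and 6 to 18 with 1 library left out, the 18 without WT MK-8722 replicate 2. For MK-8722 in AMPK KO, where 0 were called, 2 were called with a passage block, 2 with only the libraries compared, 1 by DESeq2 and 1 without the earliest passages. For the MK-8722 interaction (5), the count was 8 with no filter, 15 with a passage block, 18 without the earliest passages, 16 without passage 12, and 4 to 16 with 1 library left out, the 16 without WT MK-8722 replicate 2. For the torin1 interaction (0), it was 1 with a passage block, 5 without the earliest passages, 5 without passage 12, and 0 to 1 with 1 library left out, the 1 without WT DMSO replicate 4. The share of all genes called is given above for some of these fits only, and the other counts cannot be set against it. The cause of these shifts was not tested.

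The passage slope in WT (2) was the least stable. It gave 1 with DESeq2 size factors, 6 with no filter, 0 with a replicate block, 0 with only the libraries compared, 4 by DESeq2, 0 at a fold of at least 1.5, 20 as later against earliest passage, and 0 to 14 with 1 library left out, the 14 without WT MK-8722 replicate 1. The slope in AMPK KO (0) gave 9 as later against earliest passage. Apart from later against earliest passage, the share of all genes is not given for these alternatives. Their counts are therefore no result about these genes in particular. Without the earliest passages the WT slopes reversed for Acat2 (-0.108), Pmvk (-0.014) and Hmgcs1 (-0.35), and without passage 12 for Acat2 (-0.088).

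The replicate numbers did not pair the samples. With the replicate block 8 genes were called for MK-8722 in WT, 21 for torin1 in WT and 20 for AMPK KO against WT. The share of all genes under that block is not given. Each stock is 1 line and each passage 1 library a group, so that counts near the detection limit, Abcg1 and Nr1h3 in WT above all, carry little precision.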
